A study of Homo sapiens with 4 samples.

Results

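The transcriptome of cells labelled NB4, an acute promyelocytic leukaemia line, was measured by RNA sequencing after 24 h with 8 μM dBET1 (2 libraries) or 24 h with DMSO, the solvent (2 libraries). The labels gave both groups the same cell line and name no allele, transgene or further agent. Among the protein-coding genes, 63 were nearly silent in DMSO and on after dBET1. They were chosen by their counts, with neither DMSO library above 10 and neither dBET1 library below 50, and with genes named ZNF (zinc fingers), clustered histone genes, H1 genes and mitochondrial genes left out. The table held 64252 gene identifiers and 18952 coding genes outside those families. Of these coding genes, 7424 had no more than 10 counts in either DMSO library (called silent here), and the 63 were 0.849% of them. Since these counts chose the genes, their difference between DMSO and dBET1 is given below as a description, with no test.

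dBET1 is a degrader of BET proteins. It joins a ligand for their bromodomains to a ligand for the ubiquitin ligase subunit cereblon, so that the BET proteins are tagged and destroyed. BET proteins bind acetylated histones and help RNA polymerase II leave its paused state near the start of genes, and their loss is best known for lowering transcription. Genes that a blood cell does not use, such as those of testis, neurons or gut, are usually kept off by DNA methylation, by Polycomb or H3K9 methylation marks, or by the lack of their activators. RNA can also reach such a gene when transcription of a neighbour runs past its end.

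The libraries held 28019956 to 34685645 counts. More genes had at least 1 count after dBET1 (28356 and 28353) than in DMSO (25274 and 24589), and the part of this wider detection in the values below was not tested. Granule genes that a promyelocyte line would express (ELANE, MPO, CTSG, AZU1 and PRTN3) summed to 17 and 15 counts in DMSO and 55 and 25 after dBET1, with ELANE and CTSG at 0 in every library. The erythroid genes GATA1, KLF1, HBG1, HBG2 and HBE1 summed to 143865 and 151821 counts in DMSO and 91106 and 91580 after dBET1. The granule markers of the labelled line were thus near 0 and erythroid genes were abundant, so the libraries are called by their label only. Nothing in the labels says that the libraries of a group came from separate cultures, so p-values measure the spread between these libraries, which may be technical. In bulk RNA, more cells with a transcript and more transcript per cell cannot be told apart.

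Summed over the 63 genes, DMSO replicates 1 and 2 held 265 and 225 counts, and dBET1 replicates 1 and 2 held 9898 and 10243. Pairs of counts are given in that order throughout. Of the 63, 7 had 0 counts in both DMSO libraries (TG, RPL17-C18orf32, TEKTIP1, EGR3, LGR5, FNDC7 and WFIKKN2) and a further 26 had 0 in one of them. After dBET1, 3 genes had at least 500 counts in each library, 17 had at least 100, and the other 46 were under 100 in at least 1 library. IQCN, SMIM14 and PLEKHA6 alone gave 43.9% of the counts. The genes lay on 20 chromosomes, 9 of them on chromosome 1, with 32 on the plus and 31 on the minus strand.

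Most were weakly expressed even when on. Per kilobase of exon, the median level after dBET1 was 0.583 CPM (counts scaled to the library size) per kb, against 6.42 for the 10370 coding genes with at least 50 counts in each dBET1 library. Only IQCN (10.8 CPM per kb) and TEKTIP1 (6.83) lay above that median. The dBET1 libraries gave like values: the ratio of the higher to the lower CPM had a median of 1.18 and reached 1.68 for FCGR1A, and 31 of the 63 were higher in dBET1 replicate 2. The ratio of dBET1 to DMSO, from counts summed over each group and scaled by library size, had a median of 26.6 with the 7 genes at 0 set to their bound, and ranged from 6.46 for EXOC3L1 to 2990 for IQCN. Genes at 0 in both DMSO libraries were compared with a floor of 3 counts over the group, which gives a lower bound. The 95% intervals given with ratios are exact counting intervals and cover counting error only.

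Across all genes, edgeR's quasi-likelihood test called 3032 of 17971 tested genes higher after dBET1 (16.9%) and 1535 lower (8.54%), at an adjusted p under 0.05 and a log2 fold change beyond 1 in either direction. A gene given below as not called can still have an adjusted p under 0.05 and miss only the fold threshold. With total counts alone as the scale, 3852 were called higher and 952 lower and the median log2 fold change of all genes moved from 0.048 to 0.257, so calls within that shift of the fold threshold depend on the scale. All 63 were called higher, which their selection fixes. Among genes with over 10 counts in a DMSO library, 11.7% were called higher and 9.29% lower. The converse pattern, with DMSO and dBET1 exchanged in the rule, was met by 5 coding genes. These were CITED1 (160 and 122 counts in DMSO, 6 and 10 after dBET1), CKMT1A (70 and 84, then 10 and 3), CKMT1B (90 and 102, then 7 and 5), SLC2A4 (79 and 84, then 4 and 7) and the read-through locus PTGES3L-AARSD1 (664 and 514, then 0 and 4).

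**Figure D1:**
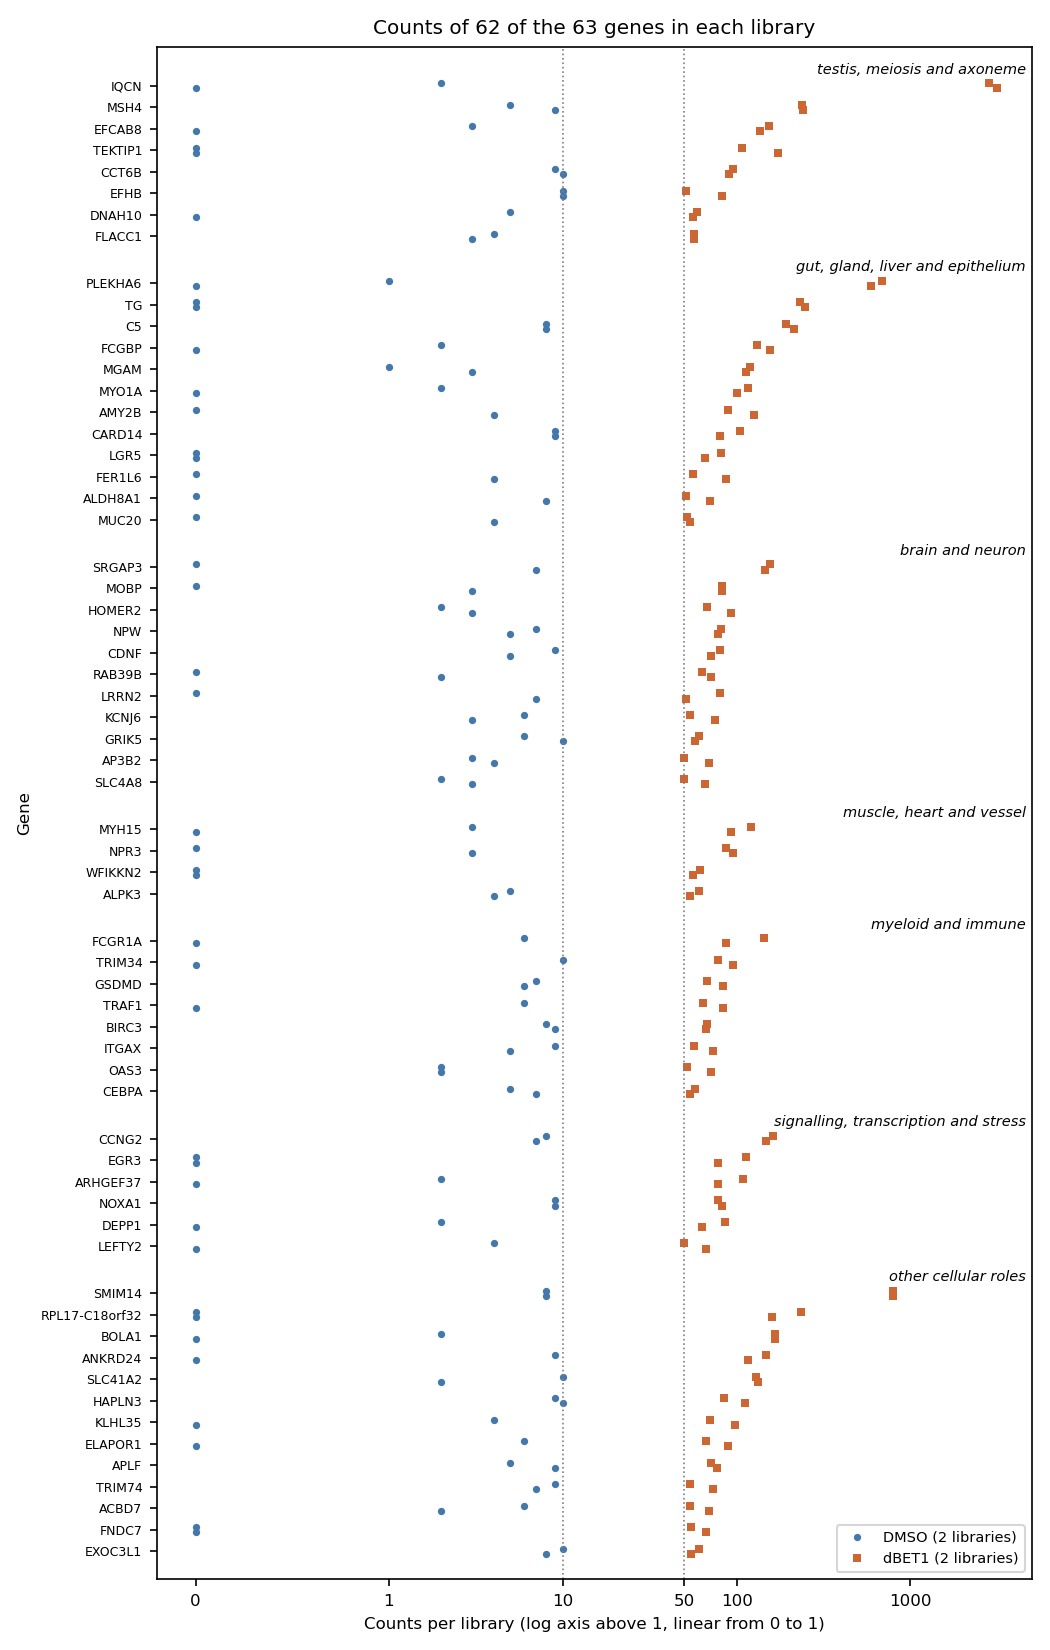
Counts of 62 of the 63 genes (vertical axis, grouped by usual tissue or role) in the 4 libraries (horizontal axis, counts per library, log scale above 1 and linear below). Blue circles are the 2 DMSO libraries, orange squares the 2 dBET1 libraries, and dotted lines mark the rule's 10 and 50 counts. IQCN, SMIM14 and PLEKHA6 stand apart at 595 to 3135 counts after dBET1, while the other genes lie between 50 and 246.

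The genes were sorted by usual tissue or role into 7 groups from general knowledge, after their values were seen. The group of testis, meiosis and axoneme genes had 8 members with 51 to 3135 counts after dBET1 and the highest median level of the 7 groups, 0.862 CPM per kb. IQCN, an IQ-motif protein of sperm (19:18257098-18274500, minus strand, hg38), had 2 and 0 counts in DMSO and 2828 and 3135 after dBET1, or 98.3 ± 5.98 CPM (SD, n = 2). Its ratio was 2990 (95% interval 827 to 24700), the highest of the 63. MSH4, a MutS homologue that acts with MSH5 at meiotic crossovers (1:75796882-75913242, plus strand), had 5 and 9 counts in DMSO and 238 and 240 after dBET1. MSH5 was already on in DMSO, with 388 and 321 counts, and was called higher at 608 and 952 (log2 fold change 1.14, SE 0.204, edgeR adjusted p = 0.00226). The higher counts of MSH4 are fixed by its selection, so no joint change of the pair is read. The mismatch repair members MSH3 and MSH6 were not called.

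EFCAB8, an EF-hand protein, had 3 and 0 counts in DMSO and 154 and 137 after dBET1, and TEKTIP1, a protein of the tektin bundle inside ciliary microtubules, had 0 and 0 counts and then 108 and 172. The bound for TEKTIP1 was at least 93.6-fold higher. DNAH10, an axonemal dynein heavy chain, had 5 and 0 counts and then 59 and 56. FLACC1, a sperm flagellum protein, had 4 and 3 and then 57 and 57, and EFHB, a protein of the ciliary doublet, had 10 and 10 and then 51 and 82. Their dBET1 values were near the minimum of the rule. CCT6B is the testis form of a subunit of the chaperonin that folds actin and tubulin. It had 9 and 10 counts in DMSO and 95 and 90 after dBET1, whereas 5 of the other 8 chaperonin genes were called lower (CCT2, CCT3, CCT5, CCT7 and TCP1, log2 fold changes -1.10 to -1.23). CCT6A, the form used in most tissues, had 20672 and 18355 counts in DMSO and 9755 and 9761 after dBET1 (adjusted p = 2.56e-05), just short of the fold threshold.

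Genes known from gut, glands, liver or epithelium made the joint largest group, with 13 members at 51 to 689 counts after dBET1. PLEKHA6, a pleckstrin-homology protein of epithelial junctions (1:204218853-204377665, minus strand), had 1 and 0 counts in DMSO and 689 and 595 after dBET1, a ratio of 1290 (95% interval 231 to 50900). Its relative PLEKHA7, also of cell junctions, had 5 and 7 counts and then 28 and 41 (it was silent in DMSO, so its call is not read), while PLEKHA4 and PLEKHA5 were not called. TG encodes thyroglobulin, the precursor of thyroid hormone (8:132866958-133134903, plus strand). It had 0 counts in both DMSO libraries and 232 and 246 after dBET1, at least 160-fold higher.

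C5, a complement component made mainly in liver (9:120932987-121075195, minus strand), had 8 and 8 counts in DMSO and 193 and 215 after dBET1. C3 had 31 and 23 and then 46 and 67 counts and was called higher (log2 fold change 1.07, SE 0.349, adjusted p = 0.0321), while C4A and C4B were not called. FCGBP, a mucus protein that binds IgG Fc, had 2 and 0 counts and then 131 and 156. MUC20, a mucin of epithelial surfaces, had 0 and 4 and then 52 and 54, on a locus with repeats and copies that can share reads.

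Enzymes of starch digestion were among the gut genes. MGAM, the brush border maltase, had 1 and 3 counts in DMSO and 120 and 114 after dBET1, and its close relative MGAM2 had 1 and 0 and then 47 and 67, just short of the rule. AMY2B, a pancreatic amylase, had 0 and 4 counts and then 89 and 126, while the other amylase genes of the cluster, AMY1A, AMY1B, AMY1C and AMY2A, had at most 2 counts in any library. The amylase genes and the maltase pair are close copies, and how reads were shared between copies was not stated in the sources used here. MYO1A, the myosin of the intestinal brush border, had 2 and 0 counts and then 117 and 101, a ratio of 109 (95% interval 29.9 to 908). Of the other class I myosins, MYO1E was called higher (36 and 24 counts, then 121 and 127, log2 fold change 2.06) and none was called lower.

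LGR5, the R-spondin receptor that marks intestinal stem cells, had 0 counts in both DMSO libraries and 81 and 66 after dBET1, at least 49.1-fold higher. LGR4, a receptor for the same ligands with wider expression, was called higher from 446 and 317 to 890 and 932 counts (log2 fold change 1.27, SE 0.136), and LGR6 had at most 2 counts. ALDH8A1, an aldehyde dehydrogenase of liver and kidney, had 0 and 8 and then 51 and 70. CARD14, a scaffold of NF-κB signalling in keratinocytes, had 9 and 9 counts and then 105 and 80, and FER1L6, a ferlin membrane protein, had 0 and 4 and then 56 and 87.

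Genes known mainly from brain and neurons numbered 11 and were low, with 50 to 156 counts after dBET1 and a median of 0.293 CPM per kb, the lowest of the 7 groups. SRGAP3, a Rac GTPase-activating protein of neurite growth, had the most, with 0 and 7 counts in DMSO and 156 and 146 after dBET1. Its relative SRGAP2 was on throughout and not called (log2 fold change 0.61), and SRGAP1 had at most 8 counts. MOBP, a myelin protein of oligodendrocytes, had 0 and 3 counts and then 82 and 82, and LRRN2, a leucine-rich repeat protein of neurons, had 0 and 7 and then 80 and 51.

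Receptor and channel subunits were read beside their partners. GRIK5, a kainate glutamate receptor subunit that needs GRIK1, GRIK2 or GRIK3 to form a channel, had 6 and 10 counts in DMSO and 61 and 58 after dBET1. GRIK2 was called lower (17 and 30 counts, then 6 and 5, log2 fold change -2.09, SE 0.583, adjusted p = 0.0171), GRIK1 had at most 12 counts, and GRIK3 and GRIK4 were at 0. KCNJ6, a G-protein-gated potassium channel subunit, had 6 and 3 counts and then 54 and 75, while KCNJ3 and KCNJ5 were at 0 in every library and KCNJ9 had at most 15. HOMER2, a scaffold of the postsynaptic density, had 2 and 3 and then 68 and 93, where HOMER3 was called lower (47 and 56 counts, then 19 and 20, log2 fold change -1.40, SE 0.364) and HOMER1 was not called.

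Vesicle, transport and secreted factor genes had like counts. AP3B2 is the neuronal β subunit of the AP-3 adaptor, which sorts cargo to lysosomes and synaptic vesicles. It had 3 and 4 counts in DMSO and 50 and 69 after dBET1, while the 6 other AP-3 genes were on in DMSO and none was called. These 6 genes each had an adjusted p under 0.05 and missed only the fold threshold. AP3D1 and AP3S2 had higher and the others lower values after dBET1. RAB39B, a GTPase of neuronal vesicles, had 0 and 2 counts and then 63 and 71, with RAB39A at 0. SLC4A8, a sodium-driven chloride-bicarbonate exchanger, had 2 and 3 and then 50 and 66. The secreted factors were NPW, a neuropeptide precursor (7 and 5 counts, then 81 and 78), and CDNF, a neurotrophic factor of the endoplasmic reticulum (9 and 5, then 80 and 71).

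The 4 genes of muscle, heart and vessel had 54 to 121 counts after dBET1. MYH15, a slow-type myosin heavy chain, had 3 and 0 counts in DMSO and 121 and 93 after dBET1, and ALPK3, a kinase of heart muscle, had 5 and 4 and then 61 and 54. NPR3, the clearance receptor of natriuretic peptides, had 0 and 3 and then 87 and 96, with NPR1 at no more than 7 counts and NPR2 not called. WFIKKN2, a secreted inhibitor of myostatin, had 0 counts in both DMSO libraries and 62 and 56 after dBET1, at least 39.4-fold higher.

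Myeloid and immune genes numbered 8, at 52 to 144 counts after dBET1. FCGR1A, the high-affinity IgG receptor of monocytes, had 6 and 0 counts in DMSO and 144 and 87 after dBET1, the least even pair of dBET1 values among the 63, and near-identical pseudogene copies can share its reads. The low-affinity receptor genes FCGR2A, FCGR2B and FCGR2C were not called. ITGAX, the integrin subunit CD11c of monocytes and dendritic cells, had 9 and 5 counts and then 57 and 73. ITGAM, the CD11b subunit next to it in the same gene family, was called higher from 22 and 9 to 170 and 152 counts (log2 fold change 3.39, SE 0.365, adjusted p = 0.000188). Of the 4 myeloid surface markers read, 2 were called higher and 2 were not called. Those called were ITGAM and, at low counts, CD14 (18 and 14, then 27 and 48, log2 fold change 1.23, adjusted p = 0.0444). CD33 (-0.01) was among those not called. The part of any shift in cell identity in these values was not tested.

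CEBPA, the transcription factor that directs granulocyte differentiation, had 5 and 7 counts in DMSO and 58 and 54 after dBET1. The relatives CEBPB, CEBPD, CEBPG and CEBPZ were on in both groups and not called. Cell death and NF-κB genes included GSDMD, the pore former of pyroptosis (7 and 6 counts, then 68 and 84), BIRC3, the inhibitor of apoptosis cIAP2 (8 and 9, then 68 and 67), and TRAF1, an adaptor of TNF receptors (6 and 0, then 64 and 83). BIRC2, the cIAP1 gene, had 1078 and 825 counts in DMSO and 1738 and 2018 after dBET1 (log2 fold change 0.99), just under the fold threshold, and none of the 6 other TRAF genes was called. Genes with interferon-linked roles were OAS3, a sensor of double-stranded RNA, with 2 and 2 counts and then 52 and 71, and TRIM34, a TRIM ubiquitin ligase, with 10 and 0 and then 78 and 96. OAS1, OAS2 and OASL were at 0 in all 4 libraries, so OAS3 stood alone in its family.

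Signalling, transcription and stress genes numbered 6. CCNG2, an atypical cyclin that is known as a target of FOXO factors and slows the cell cycle, had 8 and 7 counts in DMSO and 161 and 147 after dBET1, while CCNG1 and CCNI were on throughout and not called. DEPP1, also known as a FOXO target, had 2 and 0 counts and then 86 and 63. EGR3, an immediate early zinc finger factor, had 0 counts in both DMSO libraries and 113 and 78 after dBET1, at least 63.8-fold higher. EGR1 was abundant already and was called higher, from 959 and 883 to 11130 and 10629 counts (log2 fold change 3.56, SE 0.0855), EGR2 had 0 and 4 and then 15 and 27, and EGR4 had at most 4. LEFTY2, an inhibitor of Nodal signalling, had 4 and 0 counts and then 50 and 67, and its close copy LEFTY1 had 0 and 0 and then 45 and 24. ARHGEF37, a guanine nucleotide exchange factor, had 2 and 0 counts and then 109 and 78, and NOXA1, an activator of NADPH oxidase, had 9 and 9 and then 78 and 82.

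The last 13 genes had other cellular roles or no clear tissue, at 54 to 798 counts after dBET1. SMIM14, a small membrane protein of the endoplasmic reticulum (4:39546336-39638902, minus strand), had 8 and 8 counts in DMSO and 789 and 798 after dBET1, or 26.2 ± 0.103 CPM (SD, n = 2), a ratio of 99.4 (95% interval 61.0 to 174). BOLA1, a mitochondrial protein of iron-sulfur cluster assembly, had 2 and 0 counts and then 166 and 166, whereas BOLA3 was called lower (1741 and 1736 counts, then 704 and 658, log2 fold change -1.35, SE 0.112). SLC41A2, a magnesium transporter, had 10 and 2 counts and then 129 and 133, with SLC41A1 and SLC41A3 not called. RPL17-C18orf32 is a read-through locus made of exons of the ribosomal gene RPL17 and of C18orf32. It had 0 counts in both DMSO libraries and 235 and 160 after dBET1, at least 132-fold higher. RPL17 itself had 23448 and 23840 counts in DMSO and 22873 and 22153 after dBET1 (log2 fold change -0.07) and C18orf32 was not called (0.09), and reads of the 3 loci overlap, so the assignment between them is uncertain.

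ANKRD24, an ankyrin repeat protein of hair bundles, had 9 and 0 counts in DMSO and 148 and 116 after dBET1. HAPLN3, a hyaluronan link protein, had 9 and 10 and then 85 and 112, and KLHL35, a kelch-like protein, had 4 and 0 and then 70 and 98. ELAPOR1, an endosome and lysosome protein, had 6 and 0 counts and then 67 and 89. APLF, a factor of DNA end joining, had 5 and 9 and then 71 and 77, and ACBD7, an acyl-CoA binding protein, had 6 and 2 and then 54 and 69. FNDC7, a fibronectin type III protein, had 0 counts in both DMSO libraries and 55 and 67 after dBET1, at least 40.8-fold higher. EXOC3L1, a relative of an exocyst subunit, had 10 and 8 counts and then 61 and 55, the lowest ratio of the 63 at 6.46. TRIM74 had 9 and 7 and then 54 and 73, and its near-identical copy TRIM73, which can share its reads, was called higher (15 and 17 counts, then 115 and 158, log2 fold change 3.08).

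Relatives of the 63 genes were examined in 31 families, chosen after values were seen. Of 108 other family genes, 79 were tested and 29 were too low to test. Relatives silent in DMSO are tested only where dBET1 lifts them over the filter, so shares were read on the 72 tested relatives with over 10 counts in a DMSO library. Of these, 9 were called higher (12.5%, against 11.7% of all such genes) and 8 lower (11.1%, against 9.29%), and some relatives are near copies that can share reads with a member. Some relatives given above as not called had an adjusted p under 0.05 and missed only the fold threshold. Among them were TRAF2 (log2 fold change -0.87), TRAF4 (-0.82), CEBPZ (-0.65), PLEKHA4 (0.86), SLC41A3 (0.82) and CCNG1 (0.57).

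The thresholds cut through a continuous range. Just inside the dBET1 minimum lay AP3B2, LEFTY2 and SLC4A8, each with 50 counts in its lower library. Just outside it were ANKRD65 (0 and 0 counts in DMSO, 49 and 65 after dBET1), SPOCD1 (9 and 5, then 49 and 60) and VAMP5 (10 and 7, then 78 and 49). On the DMSO side EFHB, CCT6B and HAPLN3 had 10 counts in a library, and AIFM3 (11 and 3, then 78 and 101), DUSP8 (11 and 8, then 62 and 54) and REEP2 (9 and 11, then 92 and 83) were left out. With a minimum of 30 counts in each dBET1 library, 150 genes met the rule, and with 100 counts 17 did. With the rule written in CPM (DMSO libraries up to 0.3, dBET1 libraries from 1.5), 65 genes met it, of which 51 were among the 63.

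Position in the genome was not used by the rule. Here a gene counts as expressed with at least 100 counts in each dBET1 library, and coordinates are those of GENCODE release 44 on hg38. Starts, ends and distances are the outer bounds of each gene, so a start further inside is not seen. The RefSeq starts used below for promoters lay well inside these bounds for some genes. Among those with an upstream neighbour given below, these were HOMER2, KCNJ6, ARHGEF37, NPW, BOLA1 and TRIM34. Others included SRGAP3, MGAM, SLC4A8, CCT6B, MYH15, PLEKHA6 and AMY2B. Of the 63, 14 (22.2%) started within 10 kb past the end of an expressed gene read in the same direction, against 6.32% of the 7361 other silent coding genes and 12.9% of all coding genes. An expressed gene on the opposite strand lay within 10 kb upstream of 11 of the 63 (17.5%, against 3.87% and 11.3%). In 8 cases it lay within 500 bp of the outer bound, which need not be a divergent promoter pair. An expressed gene overlapped 16 of the 63 (25.4%, against 11.2% and 22.6%), 6 of them with one on the same strand and 11 with one on the opposite strand. In all, 36 genes (57.1%) had at least one of these arrangements and 27 (42.9%) had none. None of the 3 arrangements was found for 81.1% of the other silent coding genes, and these shares are a description without a test. SMIM14 and PLEKHA6, the most abundant after IQCN, and TG were among those with none.

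**Figure D2:**
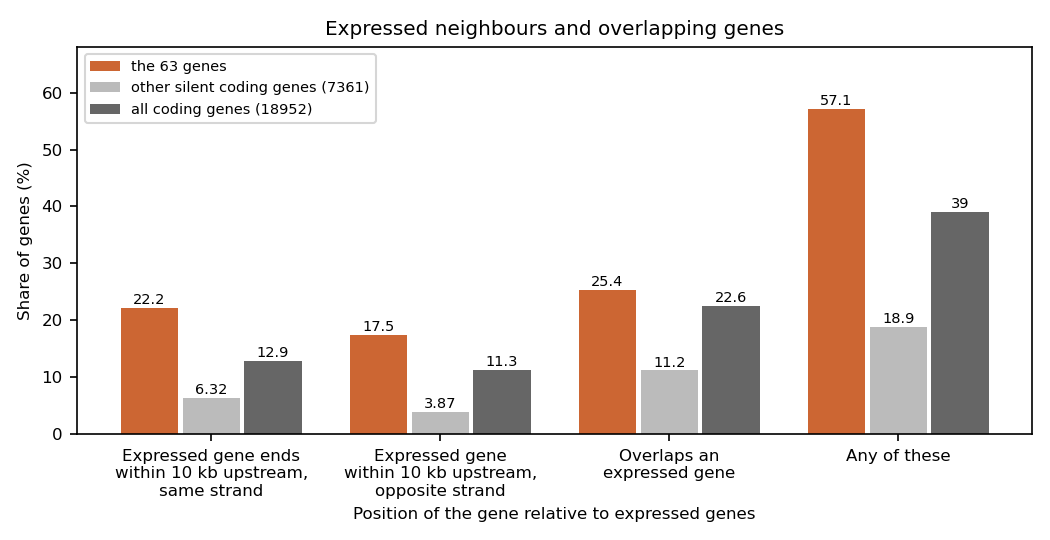
Share of genes (vertical axis, percent) with an expressed gene ending within 10 kb upstream on the same strand, with one within 10 kb upstream on the opposite strand, with an overlapping expressed gene, or with any of these (horizontal axis). Bars show the 63 genes, the 7361 other silent coding genes and all 18952 coding genes. The bars of the 63 genes are the highest in each position, at 22.2%, 17.5%, 25.4% and 57.1%.

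The same-strand upstream genes were 433 to 9980 bp away. IQCN began 5194 bp beyond the end of JUND, an AP-1 transcription factor gene without introns that had 4432 and 5118 counts in DMSO and 10400 and 10590 after dBET1 and was called higher (log2 fold change 1.13, SE 0.128, edgeR adjusted p = 0.000237). KLHL35 began 1437 bp beyond GDPD5, a phosphodiesterase gene that was also called higher, from 564 and 526 to 1110 and 1118 counts (log2 fold change 1.03, SE 0.108, adjusted p = 0.000163). TRAF1 began 3814 bp beyond C5, itself one of the 63. The only upstream gene called lower was the pseudogene PRR13P5, 8613 bp before FCGBP (339 and 292 counts, then 121 and 116, log2 fold change -1.41, SE 0.185, adjusted p = 0.000489).

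The other 10 upstream genes were not called, although 8 of them had an adjusted p under 0.05 and missed only the fold threshold, some with higher and some with lower values after dBET1. MSH4 began 1796 bp beyond RABGGTB (log2 fold change -0.53), EFCAB8 8518 bp beyond MAPRE1 (-0.32), TRIM34 6806 bp beyond TRIM6 (-0.11) and FNDC7 9980 bp beyond PRPF38B (-0.88). DNAH10 began 433 bp beyond ATP6V0A2 (0.67), TEKTIP1 837 bp beyond FZR1 (0.31), HOMER2 2288 bp beyond C15orf40 (0.54) and HAPLN3 3086 bp beyond MFGE8 (0.73). MYO1A began 4445 bp beyond NEMP1 (0.27). These distances run from the outer bounds, and the RefSeq starts of TRIM34 and HOMER2 lay further away. The TRIM34 promoter was at 11:5624751-5625050, beside a bound at 5619764. That of HOMER2 was at 15:82952671-82952970, beside a bound at 82986153. In all, 3 of the 14 upstream genes were called higher, 1 of them the member C5, whose call its selection fixes, and 1 lower, beside the 16.9% and 8.54% of all genes tested. All but C5 had over 10 counts in a DMSO library, and of all such genes 11.7% were called higher and 9.29% lower. The upstream genes were picked with at least 100 counts in each dBET1 library, so the shares are not fully alike. Without DMSO replicate 1, JUND (0.90) and GDPD5 (0.95) no longer passed the fold threshold and C5 alone was called higher. Whether transcripts ran from an upstream gene into the next one was not tested, since gene counts do not show it.

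**Figure D3:**
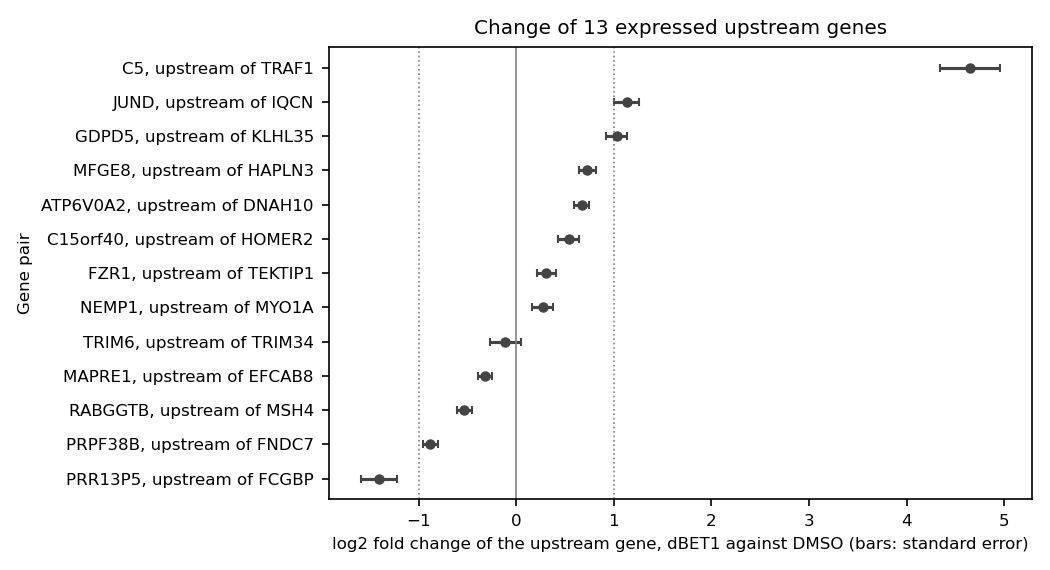
log2 fold change of 13 of the 14 expressed genes that end within 10 kb upstream of one of the 63 genes on the same strand (horizontal axis, dBET1 against DMSO, bars show the standard error from edgeR, n = 2 libraries per group), 1 row per gene pair (vertical axis). Dotted lines mark a log2 fold change of 1 and -1. C5, JUND and GDPD5 lie above 1, PRR13P5 lies below -1, and the other 9 lie between.

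Of the 11 opposite-strand upstream genes, 2 were called higher and 1 lower. All had over 10 counts in a DMSO library, and of all such genes 11.7% were called higher and 9.29% lower. They were picked with at least 100 counts in each dBET1 library, so nothing is read from this count. The outer bound of BOLA1 lay 1208 bp from the histone gene H2BC21, which had 601 and 538 counts in DMSO and 3233 and 3181 after dBET1 (log2 fold change 2.50, SE 0.0893). The RefSeq start of BOLA1 lay further away, with the promoter at 1:149899318-149899617 beside a bound at 149887890. APLF started 278 bp from FBXO48, an F-box gene with 42 and 44 counts and then 240 and 181 (log2 fold change 2.29, SE 0.271). EXOC3L1 started 1970 bp from E2F4, a cell cycle transcription factor called lower (7387 and 6746 counts, then 3403 and 3332, log2 fold change -1.07). The others were not called: RAMAC 57 bp from HOMER2, RAB5A 72 bp from EFHB, ZNF598 105 bp from NPW, DSCR8 106 bp from KCNJ6, SIRT6 123 bp from ANKRD24, EXD3 139 bp from NOXA1, CSNK1A1 476 bp from ARHGEF37 and RPP38 8404 bp from ACBD7. Of these, ZNF598 (log2 fold change -0.77), RPP38 (-0.85) and CSNK1A1 (-0.26) had an adjusted p under 0.05 and missed only the fold threshold. For HOMER2, NPW, KCNJ6 and ARHGEF37 the RefSeq starts lay far inside the bound. The KCNJ6 promoter was at 21:37916408-37916707, beside a bound at 38121345.

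Overlapping expressed genes can share reads with a member, since the strand setting of the counting was not stated in the sources used here. FCGR1A overlapped the histone gene H2BC18 (85 and 82 counts in DMSO, 559 and 503 after dBET1, log2 fold change 2.67) and the unnamed non-coding locus ENSG00000233030 (10 and 5, then 298 and 334). CARD14 overlapped SGSH, a lysosomal sulfatase gene (331 and 311 counts, then 1628 and 1748, log2 fold change 2.40), and the locus ENSG00000262580 (43 and 56, then 304 and 284). DNAH10 overlapped CCDC92 (65 and 65 counts, then 418 and 441, log2 fold change 2.72). These 3 members thus lay over genes called higher, and the part of shared reads in their counts was not tested. Of all genes tested, 16.9% were called higher. Overlapping genes were picked with at least 100 counts in each dBET1 library. ENSG00000233030 was silent in DMSO, so its call is not read. The overlapping genes of the other 13 were not called. Among them were CNTRL over C5 (log2 fold change 0.47), THUMPD3 over SRGAP3 (-0.13), CASP8 over FLACC1 (0.43), RNPC3 over AMY2B (0.88), HSPA14 over CDNF (-0.99) and MFSD12 over TEKTIP1 (0.09). CNTRL, CASP8, RNPC3 and HSPA14 had an adjusted p under 0.05 and missed only the fold threshold, as did some of those not named. Overlaps were also taken from the outer bounds, and RefSeq starts lay well inside these for SRGAP3, AMY2B, CCT6B, SLC4A8 and KCNJ6. Whether these genes overlap the same neighbours from their RefSeq starts was not tested.

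The wider neighbourhood was also read. Of 199 tested coding genes within 100 kb of one of the 63, 33 were called higher (16.6%) and 13 lower (6.53%), with a median log2 fold change of 0.07, beside 12.9%, 9.71% and -0.07 for the 11982 tested coding genes that are not among the 63. Both sets can hold genes silent in DMSO, which are tested only where dBET1 lifts them over the filter. No trait of the neighbourhood is therefore read from these shares. There were 7 pairs of the 63 genes within 1 Mb, all on the same strand. The closest were TRAF1 with C5, 3814 bp apart, FCGR1A with BOLA1, 96.2 kb apart, and AP3B2 with HOMER2, 127 kb apart.

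In span and exon number, the 63 lay nearer to expressed genes than to other silent ones. Their median span was 42.1 kb with 11 exons in the canonical transcript, against 20.7 kb and 6 exons for the other silent coding genes and 33.2 kb and 10 exons for coding genes with at least 100 counts in each DMSO library. Exon numbers ran from 1 in CEBPA to 79 in DNAH10. A longer gene gathers more counts at the same level, and the part of length in meeting the minimum of 50 counts was not tested.

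Promoters, taken as the 250 bases before and 50 after the RefSeq start (GRCh38.p14), were matched by symbol for 50 of the 63. A CpG-rich promoter is typical of widely expressed genes and a CpG-poor one of tissue-restricted genes. Here the ratio of observed to expected CpG had a median of 0.589 for the 50 (interquartile range 0.249 to 0.891), against 0.397 for 5321 other silent coding genes and 0.863 for 7813 coding genes with at least 100 counts in each DMSO library. A ratio of at least 0.6 was found in 24 of the 50 (48.0%), against 37.9% and 87.6%. The 50 therefore held promoters of both kinds, with CpG-rich starts such as CEBPA, CDNF, CCT6B and ANKRD24 beside CpG-poor starts such as AMY2B, MYO1A, FCGR1A and NPR3.

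**Figure D4:**
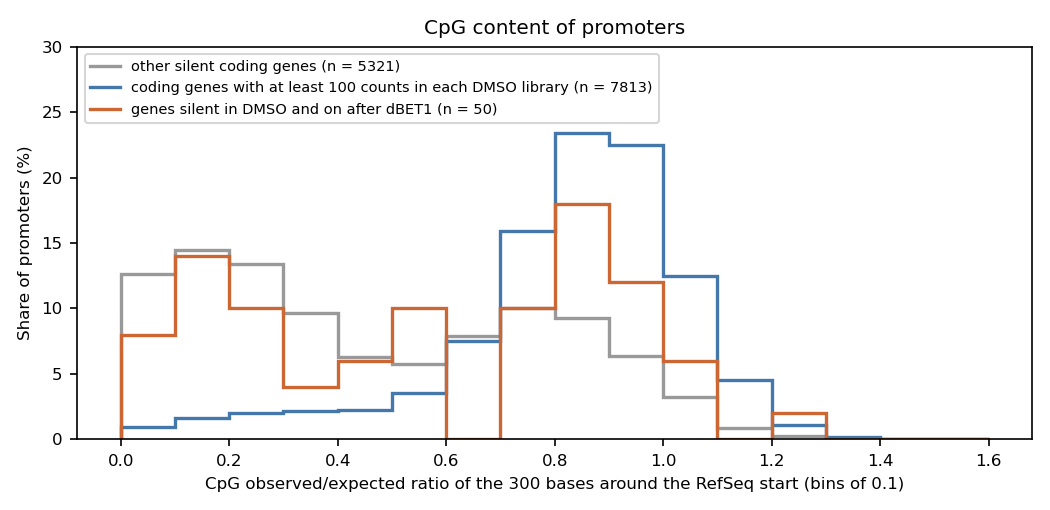
Share of promoters (vertical axis, percent) by the ratio of observed to expected CpG in the 300 bases around the RefSeq start (horizontal axis, bins of 0.1). Lines show the 50 promoters of genes silent in DMSO and on after dBET1, 5321 other silent coding genes, and 7813 coding genes with at least 100 counts in each DMSO library. The 50 promoters fall into a CpG-poor and a CpG-rich part, with a median of 0.589 between the 0.397 and 0.863 of the other sets.

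The promoters of 5 genes are given here, 5′ to 3′ on the strand of the gene, in lower case with the named motif in capitals. IQCN and SMIM14 are shown as the most abundant of the 63, IQCN at chr19:18274403-18274702 (minus strand, CpG ratio 0.168) and SMIM14 at chr4:39638816-39639115 (minus strand, 0.899). The capitals in IQCN mark TGACTCA, the AP-1 motif, read on the other strand 25 bases before the start, and those in SMIM14 mark GGGCGG, the GC box, on the other strand at -187 and -88. DEPP1 at chr10:44978760-44979059 (minus strand, 0.25) and CCNG2 at chr4:77156957-77157256 (plus strand, 0.894) are shown as the known FOXO targets, with the forkhead motif GTAAACA at -180 and the TATA box TATAAA at -31 in DEPP1, and the E box CACGTG at -30 in CCNG2. CEBPA at chr19:33302485-33302784 (minus strand, 1.05) is shown as a CpG-rich promoter that also holds TATAAA, at -30.
IQCN: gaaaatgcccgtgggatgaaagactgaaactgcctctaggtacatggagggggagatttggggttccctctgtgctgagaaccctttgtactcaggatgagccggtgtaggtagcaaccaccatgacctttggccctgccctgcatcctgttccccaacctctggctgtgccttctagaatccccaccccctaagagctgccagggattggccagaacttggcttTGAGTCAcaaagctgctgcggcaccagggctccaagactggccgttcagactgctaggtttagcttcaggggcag
SMIM14: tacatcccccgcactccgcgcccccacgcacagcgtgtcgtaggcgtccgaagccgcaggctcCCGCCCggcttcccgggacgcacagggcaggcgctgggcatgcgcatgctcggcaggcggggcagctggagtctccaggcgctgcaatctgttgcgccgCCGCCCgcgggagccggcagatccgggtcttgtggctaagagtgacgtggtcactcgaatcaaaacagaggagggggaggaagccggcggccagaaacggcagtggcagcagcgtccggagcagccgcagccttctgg
DEPP1: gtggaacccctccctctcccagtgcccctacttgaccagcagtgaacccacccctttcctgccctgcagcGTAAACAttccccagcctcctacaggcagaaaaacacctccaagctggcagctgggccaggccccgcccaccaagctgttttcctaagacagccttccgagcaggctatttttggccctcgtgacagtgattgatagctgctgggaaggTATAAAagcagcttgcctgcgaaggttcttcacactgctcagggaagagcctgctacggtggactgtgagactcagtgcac
CCNG2: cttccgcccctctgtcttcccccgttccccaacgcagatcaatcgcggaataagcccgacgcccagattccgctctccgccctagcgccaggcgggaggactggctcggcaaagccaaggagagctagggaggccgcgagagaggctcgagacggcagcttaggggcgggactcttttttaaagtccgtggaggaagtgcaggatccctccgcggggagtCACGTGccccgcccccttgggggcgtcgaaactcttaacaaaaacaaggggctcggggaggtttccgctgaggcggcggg
CEBPA: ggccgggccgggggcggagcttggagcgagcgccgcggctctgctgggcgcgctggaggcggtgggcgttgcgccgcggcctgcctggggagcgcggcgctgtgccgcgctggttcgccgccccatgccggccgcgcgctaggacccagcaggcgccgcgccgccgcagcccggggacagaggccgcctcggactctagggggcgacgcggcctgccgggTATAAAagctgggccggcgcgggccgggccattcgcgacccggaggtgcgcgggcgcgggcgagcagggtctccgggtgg

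In all, 6 motifs were searched on both strands, and none of them contains another. TATAAA was in 7 of the 50 (14%), in 9.51% of all 14715 coding promoters and in 16.6% of the 5321 of other silent genes. In the same order, CACGTG was in 5 (10%, 9.07% and 6.33%), GTAAACA in 2 (4.0%, 2.66% and 3.18%) and TGACTCA in IQCN alone (2.0%, 3.68% and 5.0%). CCAAT was in 18 (36.0%, 36.1% and 35.5%) and GGGCGG in 23 (46.0%, 59.4% and 39.5%), so for TATAAA and GGGCGG the 50 lay between both sets. Besides DEPP1, AMY2B held GTAAACA. A match describes these letters in this window and does not show that a factor binds there.

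The wider programmes to which these genes belong were read from 12 lists of tissue and function genes, 931 genes in all, of which 688 were silent in DMSO and 6 were among the 63 (0.872% of the silent ones, beside 0.849% over all silent coding genes). Only 4 lists held one of the 63: germ line and testis (IQCN), epithelium and keratinization (MUC20 and PLEKHA6), liver and plasma proteins (C5 among them), and cilium and axoneme (DNAH10). The other 8 lists, from synapse and muscle to cytokines and developmental transcription factors, held none. With 47 to 100 silent genes in each of these 8 lists, a share of 0.849% comes to less than 1 gene per list, so nothing is read from their lack of members. Of the 298 list genes tested, 90 were called higher (30.2%, against 16.9% of all genes tested) and 42 lower (14.1%, against 8.54%). Silent genes are tested only where dBET1 lifts them over the filter, so shares were read on list genes with over 10 counts in a DMSO library. Of 238 such genes tested, 37 were called higher (15.5%, against 11.7% of all such genes) and 42 lower (17.6%, against 9.29%).

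Cilium and axoneme genes had the highest share, with 10 of 30 tested genes on in DMSO called higher (33.3%, median log2 fold change 0.73) and 2 lower. They included CFAP70, a ciliary protein (152 and 76 counts, then 857 and 912, log2 fold change 2.98), DNAI4, a dynein intermediate chain (22 and 10, then 148 and 171, log2 fold change 3.33), and RSPH3, a radial spoke protein (138 and 113, then 520 and 491, log2 fold change 2.02). Muscle genes followed with 5 of 17 (29.4%, median 0.23) and 4 lower. PYGM, the muscle glycogen phosphorylase, had 29 and 24 counts and then 451 and 505 (log2 fold change 4.17, adjusted p = 1.1e-05), and NEB, the thin filament ruler nebulin, had 418 and 290 and then 1280 and 1251 (log2 fold change 1.85). The 4 called lower included TNNI3, cardiac troponin I (702 and 666 counts, then 171 and 140, log2 fold change -2.14), and MYL4, an atrial myosin light chain (2009 and 1855, then 574 and 574, log2 fold change -1.75).

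Shares nearer the background were found for photoreceptor and sensory genes (2 of 11, 18.2%, and 3 lower), synapse genes (4 of 22, 18.2%, and 4 lower), germ line and testis genes (3 of 17, 17.6%, and 2 lower), hormones and peptide ligands (2 of 13, 15.4%, and 4 lower) and epithelium genes (3 of 21, 14.3%, and 5 lower). Lower shares were found for liver and plasma proteins (1 of 11, 9.09%, and 2 lower), ion channels (3 of 34, 8.82%, and 7 lower), developmental transcription factors (3 of 34, 8.82%, and 4 lower) and cytokines and chemokines (1 of 13, 7.69%, and 1 lower). Of the 15 lymphocyte genes on in DMSO, 4 were called lower and 11 were not called. With so few genes on in DMSO in each list, single genes move these shares.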

How the data were processed

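RNA sequencing libraries of cells labelled NB4 (2 with 8 μM dBET1 and 2 with DMSO, 24 h) were grouped by their labels. The authors aligned reads to hg38 with HISAT2 2.2.0, estimated abundances with StringTie and deposited a table of unnormalized whole-number counts, 1 row per gene. How abundances became counts, and the strand setting, are not given in the sources used here, so counts divided by 2 were also tried. The table's NC columns were read as the DMSO libraries. There were 0 columns left out and 0 rows without a gene.

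Biotypes, positions and symbols came from GENCODE release 44, which held 56105 of 64252 identifiers. Promoters came from RefSeq (GRCh38.p14). The tools were R 4.3.3, limma 3.58.1 and edgeR 4.0.16, with filterByExpr, TMM factors (0.918 to 1.08), the quasi-likelihood test with the group alone over all 4 libraries, and Benjamini-Hochberg adjustment over 17971 genes. The biological coefficient of variation was 0.123. CPM used TMM-scaled library sizes, and ± gives the SD of 2 libraries. Alternatives were DESeq2 1.42.0, other scalings, filters and thresholds, a replicate block and leaving out each library.

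The 63 genes, the tissue lists, families and groups were chosen with earlier results of these data known. Full values were to be given for the 25 members with the highest CPM after dBET1, members of a tissue list, members with an expressed same-strand upstream gene and genes at the edges of the rule. One of the 63 and a few other genes are not reported here. All further members, relatives and neighbours were named after their values were seen.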

Additional observations from a re-analysis of the deposited data

Results flagged for a closer look

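Outside the coding genes, the same thresholds (10 counts in DMSO, 50 after dBET1) were met by 30 lncRNA genes and by 5 identifiers without an entry in GENCODE release 44. They drew attention because they show counts after dBET1, above the DMSO libraries, in features that the comparisons of coding genes did not use. The lncRNA genes reached 298 and 334 counts after dBET1, in the locus ENSG00000233030 that overlaps FCGR1A. ADAMTSL4-AS1 had 10 and 6 counts in DMSO and 200 and 133 after dBET1, and LINC02897 had 5 and 10 and then 111 and 107. The identifiers without an entry reached 383 and 325 counts. Without a strand setting, antisense and overlapping loci can share reads with their neighbours, and the part of this was not tested.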

How the results depend on the processing

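With 2 libraries per group, and 46 of the 63 genes under 100 counts in a dBET1 library, membership depended on thresholds. The rule gave 63 genes, and 33 with no DMSO library above 5 counts, 23 with none above 3, 150 with at least 30 counts in each dBET1 library, 17 with at least 100 and 42 with counts divided by 2, of which 17 were shared. Leaving out 1 library gave 85 to 101, with all 63 kept, since fewer libraries must pass (101 without DMSO replicate 1, 85 without DMSO replicate 2, 95 without dBET1 replicate 1, 90 without dBET1 replicate 2). The share with an expressed same-strand upstream gene was 22.2%, and 12.7% within 5 kb (3.83% of silent coding genes), 54.0% within 50 kb (19.2%) and 21.8% to 31.1% without 1 library, an alternative added after seeing the data. Upstream genes called higher numbered 1 to 3 without 1 library. Across all genes, 3032 were higher and 1535 lower, and 1940 were higher with at least 10 counts in every sample, a filter that tests fewer genes and leaves EFHB alone of the 63. Scaling by total counts only gave 952 lower and moved the share of calls that were higher from 66.4% to 80.2% and the median of all genes from 0.048 to 0.257 (log2). The cause was not tested. Without 1 library, 2309 to 2953 were higher and 1516 to 1709 lower. The replicate numbers did not pair the samples (correlation of deviations -0.000515), and with the replicate block 2945 were higher and 1530 lower. DESeq2 gave 2277 higher and 1452 lower and called 60 of the 63, leaving TRIM34 (adjusted p = 0.0603), LRRN2 (0.069) and ALDH8A1 (0.107). JUND, GDPD5, C5 and PRR13P5 kept their direction in the alternative fits. The directions of other genes were not compared between settings.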
